A study of Mus musculus with 8 samples.

Results

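Pleiotrophin (Ptn) and 7 further growth factors that somatic cells of the testis are known to make, midkine (Mdk), Gdnf, Kitl, Fgf2, Pdgfa, Dhh and Vegfa, were followed in RNA sequencing of mouse testis. The 8 genes were chosen by symbol, with earlier results of these libraries known, and all 8 were found among the 55421 gene identifiers counted in each library. All 8 also passed the filter on low counts, which kept 26414 genes. Because the choice was made around the pattern of Ptn, its values are given as a description without a test. Total RNA of 8 libraries from wild-type male mice was sequenced, 2 libraries in each of 4 groups. CTRL animals received phosphate-buffered saline. LPS animals received lipopolysaccharide, a component of the outer membrane of Gram-negative bacteria that provokes inflammation. LPS+DHEA animals received LPS and, 6 h later, DHEA. LPS+DHEA+Nb animals received LPS and, 6 h later, DHEA together with Nb23-bi. What DHEA and Nb23-bi stand for is not spelled out in the labels, and no group received DHEA or Nb23-bi without LPS, nor Nb23-bi without DHEA. The sources used here give neither doses nor the time of tissue collection, and do not say if the paired libraries of a group were separate animals. The p-values therefore measure the spread between these libraries, which may be technical.

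The testis makes sperm continuously from spermatogonial stem cells, and the somatic cells around them supply the signals that set the balance between renewal and differentiation. Sertoli cells secrete GDNF and FGF2, which maintain stem cells, and KIT ligand, which drives spermatogonia into differentiation. Sertoli cells also secrete desert hedgehog (DHH) and PDGF-A, which instruct the interstitial Leydig cells, the source of androgen, and the contractile peritubular myoid cells. VEGF-A acts on blood vessels. Pleiotrophin and midkine form a family of heparin-binding growth factors that act through receptors on many cell types, and pleiotrophin is known from Leydig cells among others.

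Libraries held 61.3 to 64.5 M counts. Summed spermatid markers reached 12593 to 15511 CPM (counts scaled to a common library size and composition), and the Sertoli and Leydig lists were detected in full, 9 of 9 and 7 of 7 genes. Of 7 epididymal markers, Lcn5 and Rnase9 had no count in any library, and the only abundant member was Cst8, at 156.2 to 195.4 CPM. The extraction protocol speaks of islets, whereas the tissue label, testis, was used here and the marker levels are those of testis. In bulk tissue, fewer cells of a type and less RNA per cell cannot be told apart.

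The windows around the annotated starts of Ptn and Fgf2 are shown because these were the 2 members with the widest range across libraries. Each window runs from 250 bases before to 50 bases after the start in RefSeq on GRCm38.p6, and is printed 5′ to 3′ on the gene's strand. Capitals mark a steroid receptor motif (AGAACA) in the Ptn window at chr6:36810130-36810429 on the minus strand and a GC box (GGGCGG) in the Fgf2 window at chr3:37348403-37348702 on the plus strand.
Ptn: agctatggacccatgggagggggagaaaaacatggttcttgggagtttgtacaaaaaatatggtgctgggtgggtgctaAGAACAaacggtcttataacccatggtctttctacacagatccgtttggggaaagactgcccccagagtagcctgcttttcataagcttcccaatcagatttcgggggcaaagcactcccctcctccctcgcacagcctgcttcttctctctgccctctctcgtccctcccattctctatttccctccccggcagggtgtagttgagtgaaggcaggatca
Fgf2: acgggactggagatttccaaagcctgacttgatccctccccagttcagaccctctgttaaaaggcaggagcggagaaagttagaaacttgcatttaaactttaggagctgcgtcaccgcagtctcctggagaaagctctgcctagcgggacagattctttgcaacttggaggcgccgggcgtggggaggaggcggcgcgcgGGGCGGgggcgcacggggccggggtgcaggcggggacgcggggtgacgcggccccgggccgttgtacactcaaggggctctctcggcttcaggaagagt

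Windows were found for 7 of the 8 members, 10 windows in all. Both strands were searched for 6 motifs, namely the steroid receptor motif AGAACA, the GC box GGGCGG, the TATA box TATAAA, the cAMP response element TGACGTCA, the hypoxia core ACGTG and, by name, the NF-kB motif. No match in these windows overlapped a match of another motif. The Ptn window held AGAACA, starting 171 bases before the start, and no other motif searched. AGAACA was present in 19.0% of all 32851 windows. The Fgf2 window held 1 GC box, starting 49 bases before the start, where 35.7% of all windows held the motif. Base composition separated the pair, with 62.7% G and C and 24 CG dinucleotides for Fgf2 against 52.0% and 6 for Ptn, where the median window had 52.7% and 7. Among the other members, GC boxes occurred in the windows of Kitl, Pdgfa, Dhh and Vegfa, TATAAA in those of Gdnf and Kitl, AGAACA in a window of Gdnf, the hypoxia core in windows of Gdnf and Vegfa, and the NF-kB motif, found in 4.51% of all windows, in a window of Vegfa. These are matches of letters only.

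Ptn was lowest in the LPS group and highest in LPS+DHEA+Nb. The gene lies on chromosome 6 at 36714929 to 36810220 (GRCm38, minus strand) and no other annotated gene overlaps it. The CTRL libraries had 2.65 and 1.80 CPM (166 and 115 counts). In LPS, Ptn stood at 0.646 and 0.704 CPM (41 and 44 counts). LPS+DHEA libraries had 2.10 and 1.82 CPM (134 and 111 counts). Both treated groups were thus above both LPS libraries, and LPS+DHEA overlapped CTRL. LPS+DHEA+Nb had 3.23 and 2.90 CPM (205 and 184 counts), above all 6 other libraries.

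Relative to the CTRL mean of 2.23 ± 0.605 CPM (SD, n = 2), the LPS mean of 0.675 ± 0.0412 was 30.3%, the LPS+DHEA mean of 1.96 ± 0.199 was 87.9% and the LPS+DHEA+Nb mean of 3.06 ± 0.229 was 137.7%. The fitted log2 fold change was -1.72 (SE 0.30) in LPS against CTRL, a 3.29-fold lower level. Against LPS it was 1.53 (SE 0.30) in LPS+DHEA, 2.89-fold higher, and 2.18 (SE 0.30) in LPS+DHEA+Nb, 4.53-fold higher. The 2 treated groups differed by a log2 value of 0.65 (SE 0.29), with LPS+DHEA+Nb the higher. These comparisons share libraries and are not independent of each other. Leaving out each library in turn moved the LPS against CTRL value between -1.97 and -1.41. Every direction was kept, which could hardly be otherwise where the groups compared did not overlap.

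**Figure D1:**
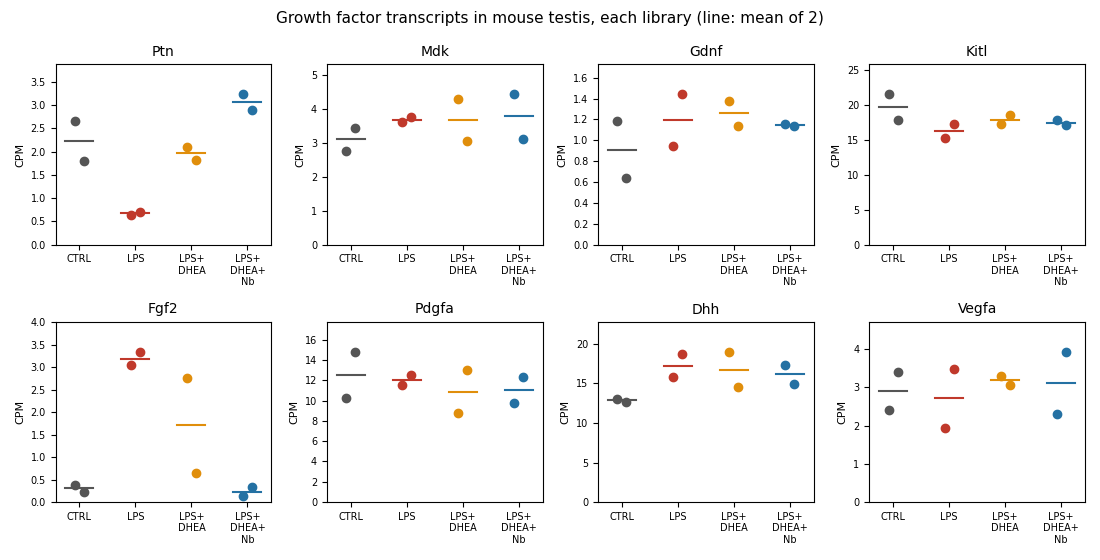
CPM of the 8 growth factors in each library, with groups on the x axis, a point per library, a line at the mean of 2 libraries and a separate linear y axis from 0 for each gene. Ptn dips to 0.646 and 0.704 CPM in LPS, Fgf2 peaks there at 3.04 and 3.34 CPM, and the points of the other genes lie much closer together across groups.

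Markers of somatic cells moved over the same libraries. The summed Leydig list (Insl3, Star, Cyp11a1, Cyp17a1, Hsd3b1, Hsd3b6 and Lhcgr) was 869.3 and 1018 CPM in CTRL against 727.2 and 698.7 in LPS, with 646.1 and 628.2 in LPS+DHEA, then 942.1 and 823.4 in LPS+DHEA+Nb. Most of this sum was Insl3, which overlapped between LPS and CTRL. Without Insl3 the other 6 summed to 317.7 to 421.2 CPM in CTRL, 123.7 to 182.7 in LPS, 143.3 to 144.3 in LPS+DHEA and 317.2 to 383.5 in LPS+DHEA+Nb. Both sums were thus lower in LPS and LPS+DHEA than in CTRL. The steroidogenic enzyme genes Cyp17a1 and Hsd3b1 had log2 values of -2.08 (SE 0.51, adjusted p = 0.491) and -1.75 (SE 0.32, adjusted p = 0.218) in LPS against CTRL. For Hsd3b1 and Lhcgr both LPS+DHEA libraries were above both LPS libraries (log2 0.62 and 0.43, each with an adjusted p of 1.0). For Insl3 and Star they were below both (log2 -0.18 and -0.68), and for Cyp11a1, Cyp17a1 and Hsd3b6 they overlapped. Of all 26414 genes tested, 4253 were above and 4141 below in this way. Both LPS libraries were below both CTRL libraries for 5 of the 7 Leydig genes, where 18.1% of all genes tested were. The Sertoli sum was 918 to 937.8 CPM in CTRL, 1164 to 1187 in LPS, 1114 to 1199 in LPS+DHEA and 924 to 1088 in LPS+DHEA+Nb. Most of that difference was Clu (642.0 to 654.5 CPM in CTRL, 869.4 to 890.1 in LPS, adjusted p = 0.141), and the other 8 Sertoli genes summed to 276.0 to 283.3 CPM in CTRL and 294.4 to 297.2 in LPS. Peritubular myoid markers summed to 396.8 to 411.4 CPM in CTRL, 463.3 to 485 in LPS, with 453.2 to 473.1 in LPS+DHEA and 381.8 to 411.7 in LPS+DHEA+Nb. Most of this sum was Actg2, which overlapped between LPS and CTRL. Without Actg2 the other 5 summed to 95.4 to 104.8 CPM in CTRL and 176.5 to 181.5 in LPS. They summed to 157.4 to 183.5 in LPS+DHEA and 103.3 to 110.7 in LPS+DHEA+Nb. Within that list Acta2, the smooth muscle actin, rose in LPS (log2 1.10, SE 0.10, adjusted p = 0.000737) and fell in LPS+DHEA+Nb against LPS (-0.92, SE 0.10, adjusted p = 0.00443). Summed neutrophil markers were 0.766 to 1.13 CPM in CTRL, 3.57 to 5.70 in LPS, 2.62 to 5.43 in LPS+DHEA and 1.04 to 1.5 in LPS+DHEA+Nb. The part of any of these in the Ptn values was not tested.

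**Figure D2:**
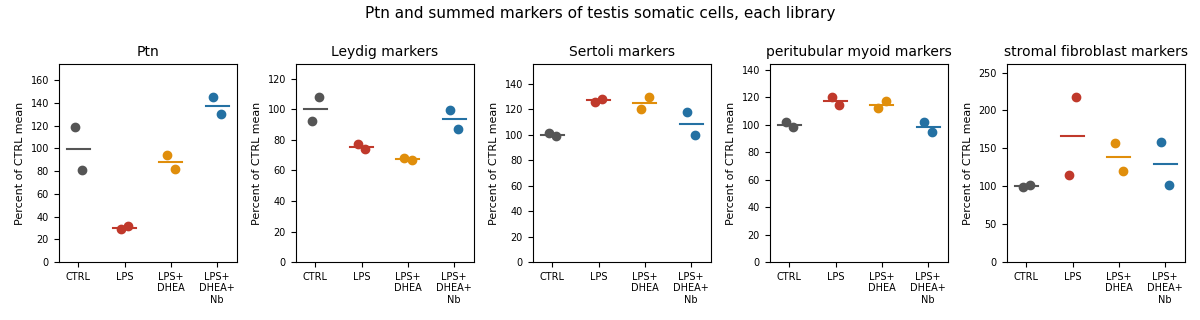
Ptn and the summed markers of Leydig, Sertoli, peritubular myoid and stromal fibroblast cells as percent of their CTRL mean (linear y axis) in each library, grouped on the x axis, with a line at the mean of 2 libraries. Ptn is at 30.3% in LPS and 87.9% in LPS+DHEA, whereas the Leydig sum, most of it Insl3, is at 74.0 to 77.0% and 66.6 to 68.4%. The higher Sertoli sum in LPS is mostly Clu, and most of the peritubular myoid sum is Actg2, which overlapped between LPS and CTRL.

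Likeness to Ptn was ranked among 13999 tested genes by the Pearson correlation of log2(CPM + 0.1) over the 8 libraries. All of these genes had a mean of at least 1 CPM. Genes without a symbol, and those named as predicted genes (Gm numbers), Rik clones, pseudogenes or similar, were left out of the ranking. The correlations are given as a description of values that share libraries and depth. The highest were Esco1, an acetyltransferase of sister chromatid cohesion (0.961), Rai14 (0.957), the cytochrome c oxidase subunit Cox6c (0.951), Gpatch4 (0.949) and Pus7l (0.948). The range of these genes was far narrower than that of Ptn: Rai14 ran from 527.0 to 538.7 CPM in LPS and from 557.7 to 577.9 elsewhere. The lowest correlations were those of Znfx1 (-0.987), Zcchc24 (-0.977), Tmem185b (-0.977), Ece1, which activates endothelin (-0.969), and Dmrt1, a transcription factor of Sertoli and germ cells (-0.969). Of the other members, Kitl stood at 0.567 and Fgf2 at -0.791, and the remaining 5 between -0.3 and 0.176.

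Midkine, the relative of Ptn, did not pass the test in any comparison. Mdk lies on chromosome 2 at 91929805 to 91932297 (minus strand). Its libraries gave 2.76 and 3.44 CPM in CTRL against 3.61 and 3.74 in LPS, with 4.29 and 3.06 in LPS+DHEA, then 4.42 and 3.12 in LPS+DHEA+Nb. Both LPS libraries were thus slightly above CTRL and within the range of the treated groups. The log2 fold change in LPS against CTRL was 0.24 (SE 0.26, adjusted p = 0.928, edgeR's quasi-likelihood test with Benjamini-Hochberg adjustment over all 26414 genes), and the other 3 lay between 0.00 and 0.04. Whether Ptn and Mdk differed from each other in response was not tested.

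Of 12 receptors and binding partners of pleiotrophin and midkine, 0 passed in any of the 4 comparisons, and 3 had an unadjusted p under 0.05 in LPS against CTRL, where 7.11% of all genes tested did. The phosphatase receptor Ptprz1 was near the detection limit, at 0 to 0.213 CPM. The kinase receptor Alk had 1.45 to 1.73 CPM in CTRL and 2.45 to 2.53 in LPS. The smallest p-values belonged to the heparan sulfate proteoglycan syndecan-4 and to LRP1, an endocytic receptor. Sdc4 had 33.0 and 28.0 CPM in CTRL and 41.8 and 41.9 in LPS (log2 0.46, SE 0.10, adjusted p = 0.143 by edgeR). DESeq2 gave Sdc4 an adjusted p of 0.0156. For Lrp1 the log2 value was 0.45 (SE 0.13, adjusted p = 0.327), and 0.65 without LPS 1 (adjusted p = 0.0468).

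Fgf2 had the largest fitted difference of the 8 genes in each comparison except LPS+DHEA against LPS, where Ptn did, and edgeR called none of those of Fgf2. This growth factor lies on chromosome 3 at 37348346 to 37410108 (plus strand). Its libraries held 0.384 and 0.234 CPM in CTRL (24 and 15 counts). In LPS they held 3.04 and 3.34 CPM (193 and 209 counts). LPS+DHEA was split, with 2.77 CPM in library 1 (177 counts) and 0.638 in library 2 (39 counts). LPS+DHEA+Nb had 0.126 and 0.331 CPM (8 and 21 counts), overlapping CTRL, and both LPS libraries lay above all others.

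In LPS against CTRL the Fgf2 log2 fold change was 3.36 (SE 0.70), a 10.3-fold higher level, with an adjusted p of 0.157. In LPS+DHEA+Nb against LPS it was -3.79 (SE 0.73, adjusted p = 0.154), and against LPS+DHEA it was -2.89 (SE 0.71, adjusted p = 0.568). In LPS+DHEA against LPS the value was -0.90 (SE 0.62, adjusted p = 1.0), and it ran from -2.32 without LPS+DHEA 1 to -0.20 without LPS+DHEA 2. A test for any difference between the 4 groups gave an adjusted p of 0.162, in a test that called 0 of the 7 members and 0.239% of all genes. The call changed with the libraries and the tool used. Without LPS+DHEA 1 or LPS+DHEA 2, the libraries that disagreed, the LPS against CTRL comparison passed with adjusted p-values of 0.0288 and 0.0225, and LPS+DHEA+Nb against LPS with 0.0276 and 0.019. Without LPS+DHEA 2 the comparison of the treated groups passed as well, at a log2 value of -3.59 (adjusted p = 0.0486), and without LPS+DHEA 1 it was -1.47 (adjusted p = 1.0). DESeq2 called all 3, with adjusted p-values of 0.000105, 1e-05 and 0.00644, and limma-voom called none.

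Annotated neighbours share the Fgf2 locus, and the sources used here do not give the strand setting of the counting. Nudt6, on the opposite strand, shares 640 exonic bases with Fgf2, 9.4% of its exonic length. Nudt6 had 1.37 and 1.33 CPM in CTRL and 2.02 and 2.24 in LPS (log2 0.65, SE 0.32, adjusted p = 0.732). In LPS+DHEA, where Fgf2 differed between libraries, Nudt6 had 1.97 and 1.72 CPM. The antisense gene Fgf2os, which shares no exonic base with Fgf2, had 4 and 5 counts in the LPS libraries and 0 in the other 6. Gm43439, on the same strand, had 1 to 6 counts in each library. Per kilobase of exon, Fgf2 was below Nudt6 in all 8 libraries (in LPS 0.448 and 0.493 against 1.2 and 1.34 CPM per kb). The library kit was stranded, but without the strand setting it is not known if the counting told reads of opposite strands apart. The part of Nudt6 reads in the Fgf2 values was not tested.

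**Figure D3:**
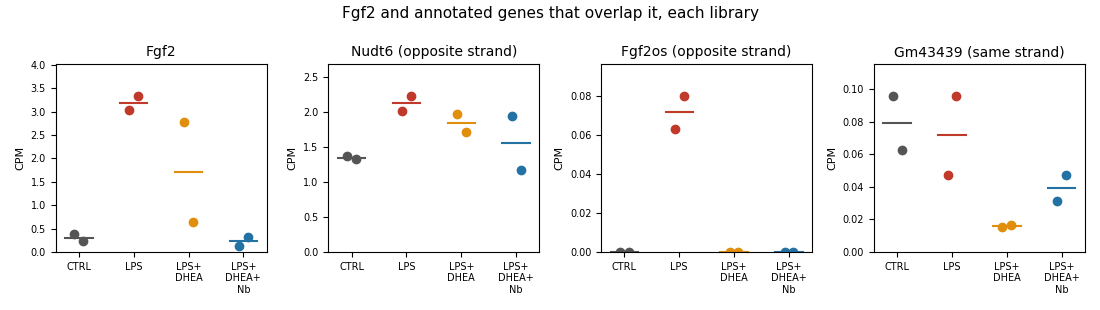
CPM of Fgf2 and of the overlapping genes Nudt6, Fgf2os and Gm43439 in each library (groups on the x axis, linear y axes from 0 that differ between panels, line at the mean of 2 libraries). Fgf2 is at 3.04 and 3.34 CPM in LPS and split in LPS+DHEA, while Nudt6 stays between 1.18 and 2.24 CPM.

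Neither the FGF receptors nor the feedback targets passed a test. Of 11 other FGF ligands and receptors and 9 targets of FGF and ERK signalling, 0 passed in any comparison by edgeR. In LPS against CTRL, 0 of them had an unadjusted p under 0.05. Of all genes tested, 0.295% passed in that comparison and 7.11% had an unadjusted p under 0.05, so lists this short could hold few. In LPS+DHEA+Nb against LPS+DHEA, 1 gene of each list had an unadjusted p under 0.05, beside 4.40% of all genes. The nearest were Fgfr3, at 2.43 and 2.81 CPM in CTRL and 3.18 and 3.63 in LPS (log2 0.38, adjusted p = 0.811), and Fgf10 (0.54, adjusted p = 0.841). Of the phosphatases that damp ERK, Dusp4 had a log2 value of 0.15 (adjusted p = 0.82) and Dusp5 of -0.27 (adjusted p = 0.846).

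GDNF, the stem cell maintenance factor, was scarce and varied as much within groups as between them. Gdnf lies on chromosome 15 at 7810846 to 7837575 (plus strand). CTRL libraries had 1.18 and 0.641 CPM (74 and 41 counts) and LPS libraries 0.945 and 1.44 (60 and 90 counts). LPS+DHEA had 1.38 and 1.14 CPM, and LPS+DHEA+Nb 1.16 and 1.14. All groups overlapped in each of the 4 comparisons made. The log2 value in LPS against CTRL was 0.39 (SE 0.40, adjusted p = 0.927). With this spread between the 2 libraries of a group, a difference of this size was not detectable.

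Of the 9 further GDNF family ligands and receptors, 8 were tested and 0 passed in any comparison. Neurturin (Nrtn) had a log2 value of -0.23 in LPS against CTRL (adjusted p = 0.928), and Gfra3, at 0 to 0.378 CPM, one of -2.32 (SE 1.75, adjusted p = 0.874). Among the stem cell genes known to respond to GDNF, 7 of 8 were tested and 0 passed. Bcl6b had 4.97 and 4.77 CPM in CTRL and 5.68 and 6.67 in LPS (log2 0.34, adjusted p = 0.79), and Id4 a log2 value of 0.15 (adjusted p = 0.841).

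Kitl, which drives spermatogonial differentiation through the receptor KIT, was slightly lower in LPS without passing the test. It lies on chromosome 10 at 100015630 to 100100416 (plus strand). It had 21.5 and 17.9 CPM in CTRL against 15.2 and 17.2 in LPS, with 17.3 and 18.5 in LPS+DHEA, then 17.8 and 17.1 in LPS+DHEA+Nb. Both LPS libraries were below both CTRL libraries, with a log2 value of -0.28 (SE 0.13, adjusted p = 0.701). The receptor Kit had 23.3 and 17.8 CPM in CTRL and 17.9 and 19.7 in LPS. In the list of KIT and differentiating spermatogonia, 0 of 6 passed in any comparison. Dmrt1 had 16.9 and 17.4 CPM in CTRL, 25.1 and 23.2 in LPS, and 15.5 to 19.1 in the treated groups. Its log2 value in LPS against CTRL was 0.50 (SE 0.11, adjusted p = 0.136), and DESeq2 called it with an adjusted p of 0.0266. Sohlh1 had a log2 value of -0.28 (adjusted p = 0.9).

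Pdgfa did not separate the groups, while the receptor Pdgfra rose in LPS. Pdgfa lies on chromosome 5 at 138976014 to 138997370 (minus strand), and 6330403L08Rik on the opposite strand covers 26.1% of its exonic bases. Its libraries had 10.3 and 14.8 CPM in CTRL against 11.5 and 12.5 in LPS, with 8.73 and 13.0 in LPS+DHEA, then 9.80 and 12.3 in LPS+DHEA+Nb. The log2 value in LPS against CTRL was -0.07 (SE 0.22, adjusted p = 0.988), and those of the other comparisons were -0.14, -0.11 and 0.03.

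Pdgfra, the receptor that receives PDGF-A on interstitial cells, had 11.6 and 13.0 CPM in CTRL and 19.0 and 25.7 in LPS. LPS+DHEA libraries had 17.4 and 17.6 CPM and LPS+DHEA+Nb 13.1 and 14.0. The treated groups thus lay between LPS and CTRL. Pdgfra rose in LPS against CTRL with a log2 value of 0.86 (SE 0.15, adjusted p = 0.0471). The call was lost without CTRL 1 (adjusted p = 0.264), CTRL 2 (0.126), LPS 2 (0.214), LPS+DHEA 1 (0.0798) or LPS+DHEA 2 (0.0804), and with only the compared groups fitted (0.137). Against LPS, the value in LPS+DHEA+Nb was -0.72 (adjusted p = 0.154), with an adjusted p of 0.0317 without LPS 1 and of 0.00603 by DESeq2. Stromal fibroblast markers, also carried by Pdgfra-expressing cells, summed to 119.6 and 122.9 CPM in CTRL and 138.8 and 263.5 in LPS, and their part in the result was not tested. Of the 5 PDGF ligands and receptors apart from Pdgfa, only Pdgfra passed, and Pdgfb came next (log2 0.72, SE 0.23, adjusted p = 0.455).

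Dhh was higher in both LPS libraries than in CTRL, a difference that did not pass adjustment. The gene lies on chromosome 15 at 98891152 to 98898540 (minus strand), and shares 12.4% of its exonic bases with Rhebl1 on the same strand and 25.2% with Gm49442 on the opposite strand. Dhh had 13.0 and 12.7 CPM in CTRL against 15.8 and 18.7 in LPS, with 19.0 and 14.5 in LPS+DHEA, then 17.4 and 14.9 in LPS+DHEA+Nb. All 6 libraries given LPS were above both CTRL libraries, with group means of 134.2%, 130.1% and 125.5% of CTRL. The log2 value in LPS against CTRL was 0.42 (SE 0.16), with an unadjusted p of 0.02 and an adjusted p of 0.559 by edgeR. The overlapping genes had log2 values of -0.52 (Rhebl1) and 0.15 (Gm49442), neither past the threshold. Group means of Gm49442 were 111.2%, 132.9% and 122.2% of CTRL in LPS, LPS+DHEA and LPS+DHEA+Nb. The latter 2 were close to those of Dhh, and the first was below its 134.2%. Library 1 was the higher for both genes in CTRL and LPS+DHEA, whereas the genes differed in which library was higher in LPS and LPS+DHEA+Nb. The part of Gm49442 in the Dhh values was not tested. Of 9 markers of Sertoli cells, which make DHH, 3 had both LPS libraries above both CTRL libraries and 0 were called. Over all genes tested these shares were 18.9% and 0.295%. The part of Sertoli cells in the Dhh values was not tested.

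Of 13 hedgehog ligands, receptors and targets, 12 were tested and 0 passed in any comparison. Ptch1, a receptor and itself a target, had 8.69 and 10.8 CPM in CTRL and 10.2 and 10.1 in LPS. The target Gli1 had 1.68 and 3.00 CPM in CTRL and 1.75 and 2.97 in LPS. Both therefore overlapped between the groups. The coreceptors Cdon (log2 0.58, SE 0.22, adjusted p = 0.576) and Gas1 (0.72, SE 0.31, adjusted p = 0.67) had the smallest p-values.

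Vegfa overlapped between all groups, and its lymphatic relative Vegfd rose in LPS. Vegfa lies on chromosome 17 at 46016993 to 46032369 (minus strand). It had 2.40 and 3.41 CPM in CTRL against 1.95 and 3.49 in LPS, with 3.30 and 3.07 in LPS+DHEA, then 2.31 and 3.93 in LPS+DHEA+Nb. The log2 value in LPS against CTRL was -0.09 (SE 0.34, adjusted p = 0.988).

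Vegfd, a ligand of the VEGF receptors on lymphatic endothelium, had 1.79 and 3.30 CPM in CTRL and 7.53 in each LPS library. LPS+DHEA had 5.62 and 5.45 CPM and LPS+DHEA+Nb 3.60 and 3.33. Levels in LPS were above those of all other groups. Vegfd rose in LPS against CTRL with a log2 value of 1.56 (SE 0.26, 2.96-fold, adjusted p = 0.0409). The call was lost without CTRL 1 (adjusted p = 0.111), LPS 1 (0.0939), LPS 2 (0.108), LPS+DHEA 1 (0.0701) or LPS+DHEA 2 (0.0705), and with only the compared groups fitted (0.129). For LPS+DHEA+Nb against LPS the value was -1.12 (adjusted p = 0.216, and 0.0199 by DESeq2). Of the 9 VEGF ligands and receptors apart from Vegfa, only Vegfd passed, and Nrp2 came next (0.60, SE 0.20, adjusted p = 0.469). Summed endothelial markers were 41.8 to 43.5 CPM in CTRL and 49.5 to 58.2 in LPS, and their part was not tested. Of 10 genes induced by low oxygen, which also induces Vegfa, 9 were tested and 0 passed in any comparison. The nearest in LPS against CTRL were the glucose transporter Slc2a1 (log2 0.56, SE 0.17, adjusted p = 0.373) and Ndrg1 (0.43, SE 0.15, adjusted p = 0.514). In that comparison 3 of the 9 (33.3%) had an unadjusted p under 0.05, beside 7.11% of all genes tested. Both LPS libraries were above both CTRL libraries for 5 of the 9 and below for 1, beside 18.9% and 18.1% of all genes. The part of low oxygen was not tested.

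Counted over the 7 members other than Ptn, edgeR called 0 in each of the 4 comparisons. Of all genes tested, 0.295% were called in LPS against CTRL, 0.0189% in LPS+DHEA against LPS, 0.17% in LPS+DHEA+Nb against LPS and 0.0871% in LPS+DHEA+Nb against LPS+DHEA. At an unadjusted p under 0.05 there were 2 members in LPS against CTRL (Fgf2 and Dhh), 0 in LPS+DHEA against LPS, and Fgf2 alone in each of the other 2. The shares of all genes at that threshold were 7.11%, 3.51%, 6.56% and 4.40%, in the order of the comparisons above. DESeq2 called Fgf2 alone in the 3 comparisons given above, where it called 291, 207 and 116 of all genes. For limma-voom, 0 members were called in each comparison. In LPS against CTRL, 3 of the 7 members had both LPS libraries above both CTRL libraries (Mdk, Fgf2 and Dhh) and 1 had them below (Kitl), where 18.9% and 18.1% of all genes did.

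**Figure D4:**
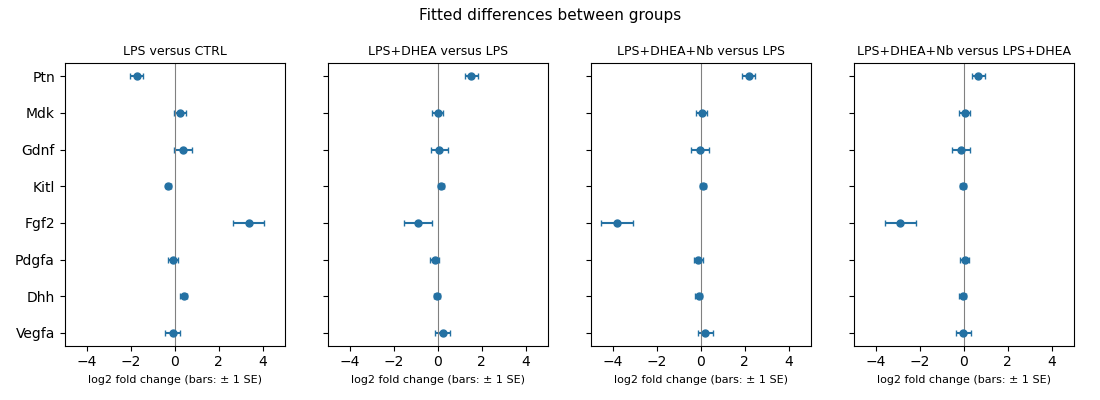
Fitted log2 fold changes (points) with SE (bars) of the 8 growth factors in 4 comparisons, genes on the y axis and the first group of each title against the second on the x axis. Ptn sits at -1.72 in LPS against CTRL and at 1.53 and 2.18 in the treated groups against LPS, Fgf2 at 3.36, -0.90 and -3.79, and the other genes between -0.28 and 0.42.

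Of the 109 genes in the 11 lists around the members, 105 were tested. Shh, Pspn, Car9 and Nanos2 had too few counts. Pdgfra and Vegfd were the 2 called in LPS against CTRL, both higher, as were 0.257% of all genes, and 0 were called by edgeR in each of the other 3 comparisons. At an unadjusted p under 0.05 there were 14, 3, 12 and 11 genes in LPS against CTRL, LPS+DHEA against LPS, LPS+DHEA+Nb against LPS and LPS+DHEA+Nb against LPS+DHEA. These are 13.3%, 2.86%, 11.4% and 10.5% of the 105, beside 7.11%, 3.51%, 6.56% and 4.40% of all genes. DESeq2 called 4 in LPS against CTRL and 4 in LPS+DHEA+Nb against LPS, where it called 291 and 207 of all genes. The median log2 fold change of the lists was 0.09 in LPS against CTRL and -0.12 in LPS+DHEA+Nb against LPS, where the median over all genes was 0.0 in both. Fitted values were above zero for 62 and below for 43 of the 105 in the first, and for 31 and 74 in the second, comparisons that share the LPS libraries. Among other growth factors of testis somatic cells, 0 of 17 passed, and Csf1, which sustains macrophages (log2 0.58, SE 0.19, adjusted p = 0.483), and Gas6 (-0.22, SE 0.11, adjusted p = 0.755) had the smallest p-values in LPS against CTRL.

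**Figure D5:**
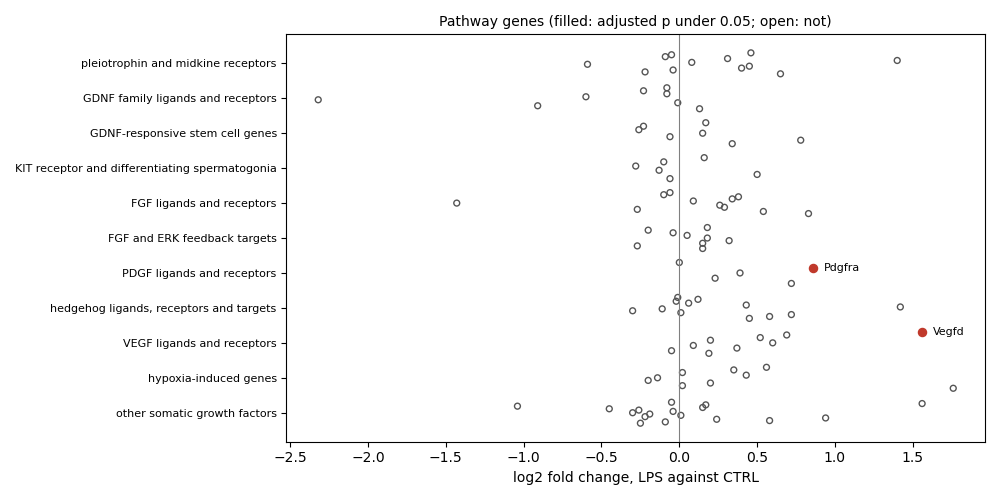
Fitted log2 fold change in LPS against CTRL (x axis) of the 105 tested pathway genes, a point per gene, with the 11 lists on the y axis. Filled points are Pdgfra at 0.86 and Vegfd at 1.56, the 2 genes with an adjusted p under 0.05, and open points are all others.

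Levels of different genes were compared per kilobase of annotated exon. In CTRL the order in CPM per kb was Pdgfa (4.03), Kitl (3.33), Dhh (2.92), Mdk (2.34), Vegfa (0.677), Ptn (0.648), Gdnf (0.248) and Fgf2 (0.0456). The libraries of Pdgfa (3.30 and 4.75) and Kitl (3.63 and 3.04) overlapped, as did those of Vegfa (0.559 and 0.795) and Ptn (0.773 and 0.524), so these neighbours did not differ beyond their spread. In LPS the level of Ptn per kb was 0.197, the lowest of the 8, and that of Fgf2 was 0.47, the sixth after Vegfa at 0.635. Ptn in LPS+DHEA+Nb was the fifth at 0.893 CPM per kb, ahead of Vegfa at 0.728 with overlapping libraries, and Fgf2 was last at 0.0337.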

How the data were processed

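Testis RNA was sequenced in 8 libraries, 2 in each of 4 groups, made with a KAPA stranded kit per the labels' protocols. Per the submitters' processing notes, HISAT (no version) and featureCounts 1.5.0-p3 were used on GRCm38. The values the authors deposited were taken as estimated counts (expected counts) per Ensembl gene: they are whole numbers, but 33.5% of values from 1 to 40 are multiples of 4, where 25% would be even. They were already whole, so no rounding was needed, and the tests planned for counts were kept. If each fragment had been counted 4 times, depth would be 15.3 to 16.1 M counts.

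Symbols and positions came from GENCODE M21 for 55154 of 55421 identifiers. filterByExpr of edgeR 4.0.16 (minimum count 10, total 15; R 4.3.3) kept 26414 genes. TMM factors ran from 0.985 to 1.015. A quasi-likelihood model with 4 group means (glmQLFit, glmQLFTest, robust; 4 residual degrees of freedom) gave p-values, adjusted by Benjamini-Hochberg over all genes tested, with 0.05 as the threshold. The SE is the log2 fold change divided by the square root of F. The steps were also run on simulated counts with known changes, whose outcome is not reported here. Only genes with a mean of at least 1 CPM were changed, so scarcer genes were not covered. Alternatives included DESeq2 1.42.0 and limma-voom 3.58.1.

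The members and lists were chosen with earlier results of these data known. Named pathway genes were those called plus the 2 with the smallest p per list in LPS against CTRL. Likeness to Ptn names the 5 highest and 5 lowest of the genes ranked. Values of Ptprz1, Alk, Kit, Ptch1, Gli1, Gfra1, Gfra4, Ret, Clu, Insl3, Star, Cyp17a1, Hsd3b1 and Lhcgr are given outside that rule.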

Additional observations from a re-analysis of the deposited data

How the results depend on the processing

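The 68 Ptn values under the 17 alternatives in 4 comparisons all kept their direction and moved by less than the spread between libraries. Ptn had been chosen with its pattern known, and its groups did not overlap in any of these 4 comparisons. Leaving out a library could therefore hardly change a direction, so the kept directions are no test of the pattern. Of 476 values of the other members, 437 kept direction and call, 30 changed sign and 9 passed the threshold; the 9 were all Fgf2. Fgf2 in LPS against CTRL passed with DESeq2 (log2 3.37) and with only the compared groups fitted (3.36, adjusted p = 0.0116), and ran from 3.05 to 3.75 with each library left out. In LPS+DHEA+Nb against LPS it passed with DESeq2 (-3.80; range -4.64 to -3.26) and in LPS+DHEA+Nb against LPS+DHEA with DESeq2 (-2.89; range -3.73 to -1.47).

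Sign changes of the remaining members occurred when a library was left out, except Mdk in LPS+DHEA against LPS, which was 0.00 with library size alone and 0.01 with counts divided by 4. For Mdk the range was -0.27 to 0.22 in LPS+DHEA against LPS, -0.23 to 0.27 in LPS+DHEA+Nb against LPS and -0.23 to 0.31 in LPS+DHEA+Nb against LPS+DHEA. For Gdnf the range was -0.20 to 0.41 in LPS+DHEA against LPS, -0.32 to 0.28 in LPS+DHEA+Nb against LPS and -0.26 to 0.01 in LPS+DHEA+Nb against LPS+DHEA. For Kitl the range was -0.09 to 0.01 in LPS+DHEA+Nb against LPS+DHEA. For Pdgfa the range was -0.31 to 0.22 in LPS against CTRL, -0.46 to 0.11 in LPS+DHEA against LPS, -0.29 to 0.05 in LPS+DHEA+Nb against LPS and -0.22 to 0.34 in LPS+DHEA+Nb against LPS+DHEA. For Dhh the range was -0.26 to 0.14 in LPS+DHEA against LPS, -0.21 to 0.03 in LPS+DHEA+Nb against LPS and -0.23 to 0.16 in LPS+DHEA+Nb against LPS+DHEA. For Vegfa the range was -0.57 to 0.26 in LPS against CTRL, -0.13 to 0.70 in LPS+DHEA against LPS, -0.23 to 0.68 in LPS+DHEA+Nb against LPS and -0.46 to 0.31 in LPS+DHEA+Nb against LPS+DHEA.

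Genes called in LPS against CTRL numbered 78, 140 with no filter, 291 by DESeq2 and 66 to 118 with a library left out (118 without LPS 1). In the same order, they were 5, 10, 35 and 10 to 24 (higher without any of the 8 libraries) in LPS+DHEA against LPS, and 20 when only the compared groups were fitted. For LPS+DHEA+Nb against LPS they were 45, 87, 207 and 43 to 88 (74 without LPS 1 and 88 without LPS+DHEA+Nb 1), and 19 with only the compared groups. For LPS+DHEA+Nb against LPS+DHEA they were 23, 42, 116 and 16 to 64 (36 without CTRL 1, 64 without LPS+DHEA+Nb 1 and 39 without LPS+DHEA+Nb 2), and 40 with only the compared groups. Over the 4 groups they were 63, 155, 371 and 65 to 131 (105 without LPS 1, 131 without LPS+DHEA+Nb 1 and 109 without LPS+DHEA+Nb 2). Pathway genes called in LPS against CTRL were 2, 4 by DESeq2, 0 with only the compared groups, 1 with the replicate number as a block and 0 to 2 with a library left out. For LPS+DHEA+Nb against LPS they were 0, 1 with no filter, 4 by DESeq2 and 0 to 2. The cause was not tested.

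Same-numbered libraries did not deviate together (correlations of -0.045 to 0.0918 over 18407 genes), so the numbers were not used to pair them. With the replicate number as a block, 62 genes were called in LPS against CTRL and Vegfd lost its call (adjusted p = 0.0583).

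With 2 libraries a group and 4 residual degrees of freedom, small differences in scarce genes such as Gdnf were not detectable. Where an arm keeps 1 library, that library is assumed to vary like the other groups. Bulk tissue does not separate cell number from RNA per cell.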

Other observations

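Gfra1, the receptor through which spermatogonial stem cells receive GDNF, was singled out after its values were seen. It had 10.5 and 9.55 CPM in CTRL against 1.24 and 9.42 in LPS, with 8.07 and 8.05 in LPS+DHEA, then 1.43 and 8.69 in LPS+DHEA+Nb. The low values were those of LPS 1 and LPS+DHEA+Nb 1, so that 1 library differed from the other within each of these groups. The log2 fold change in LPS against CTRL was -0.91 (SE 1.22, adjusted p = 0.949). Ret, the signalling partner of this receptor, had 0.654 to 1.26 CPM over the 8 libraries, with 1.05 and 1.06 in LPS.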
